A study of Homo sapiens with 32 samples.

Results

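NELL2 and OLFM1 encode secreted glycoproteins that are best known from the nervous system, and both were listed by the study among the genes whose level differed in tamoxifen-treated xenografts. NELL2 carries EGF-like repeats. It is a guidance cue for growing axons that binds the receptor ROBO3, as worked out in the mouse, and it is made by neurons. OLFM1, also called noelin or pancortin, carries an olfactomedin domain, assembles into multimers and is abundant in the brain, where it associates with glutamate receptors of the AMPA type. The probes were chosen by gene symbol from the study's list of 333 probes for 253 genes, and all probes with the symbol NELL2 or OLFM1 were taken. They are 6 of the 9912 probes on the arrays, 1 for NELL2 (23626_A) and 5 for OLFM1 (45712_A, 44177_A, 22367_A, 173569_A and 122756_A, from brightest to dimmest). The study listed them for their ratios on these same arrays, so the ratios to the control pool and the changes between days given here describe the values that chose the probes, and they carry no test.

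The samples were 16 tumors from 12 female nu/nu mice, grown from fragments of ZR-75-1, an estrogen receptor-positive line of human breast cancer cells. Estradiol (E2) was given to all mice, the controls included. The treated mice also received tamoxifen, a ligand of the estrogen receptor that opposes estradiol in breast cells, at 2.5 mg given out in the course of 60 days. Day 1 had 4 tumors of 2 mice, days 4 and 7 had 4 tumors of 3 mice each, and days 2 and 14 had 2 tumors of 2 mice each. Each tumor's RNA was put on cDNA arrays against 1 pool made from control xenografts (E2 only, days 0, 1, 2 and 4), in both dye orientations (forward and dye swap). All values below are log2 ratios of a treated tumor over the control pool, 1 per tumor, so a negative value means a lower level in the treated tumor. Which dye each channel of the scanner files holds is not named there. The direction used is that of the authors' table of values and is likely. With it, 18 of 22 listed estrogen-induced genes were called lower than the pool on day 14, by the threshold given below, and none higher. The drug given opposes estradiol, so in the turned direction these genes would be raised by it. The list was made with earlier results of these data known, so the count does not settle the direction. On day 14, 74.9% of the study's 327 probes for other genes than NELL2 and OLFM1 were called in either direction. If the file channels instead follow the channel numbers of the labels, every sign turns. Each ratio would then keep its size, NELL2 on day 14 would be 3.71-fold above the pool in place of below it, and ranks would run from the other end. The pool mixes days 0, 1, 2 and 4, so no treated day has a control of its own day alone. It holds no tumor of day 7 or 14, so tamoxifen and time alone cannot be told apart on those days. On days 1, 2 and 4 they cannot be fully told apart either. The pool's own spread is in no value. All tumors came from 1 cell line and also hold cells of the host. In such bulk RNA, fewer cells of a type and less RNA per cell cannot be told apart.

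One array stood apart. The dye-swap array labelled day 4 replicate 4 names the tumor of replicate 3 as its source, but its channel ratios followed the forward array of day 4 replicate 2, with r = 0.974 across the 333 named probes and r = 0.880 across all probes. After turning, it correlated with r = -0.37 with the forward array of its own tumor. The planned limit for leaving it out was r above 0.9 across probes, which was met across the named probes and not across all probes. The array was left out, so day 4 replicate 3 has the forward orientation alone, and the day 4 tumors keep their label numbers 1, 2, 3 and 5. With that array kept as labelled, the day 4 means were -0.78 ± 0.86 for NELL2, -0.43 ± 0.47 for OLFM1 and -0.35 ± 0.40 for NELL2 minus OLFM1 (SD, n = 4), where the means without it, given below, are -1.13, -0.59 and -0.54. On the other arrays the forward and dye-swap ratios of a tumor correlated with r between 0.373 and 0.945 across the named probes, lowest in day 7 replicate 1. Per array, the median ratio of signal to local background lay between 2.77 and 7.92. The 6 probes were bright enough to read on every array: their lowest signal over background was between 2.19 and 3.44, and their median between 6.53 and 20.3.

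NELL2 was near the pool at first and lay far below it later. At day 1 the 4 tumors had log2 ratios of 0.32, -0.31, -0.08 and -0.59. At day 2 they were -0.10 and -0.70. These 6 tumors lay on both sides of the pool, and the day 1 and day 2 values overlapped. At day 4 NELL2 stood at -1.27, -1.51, -0.998 and -0.74 in replicates 1, 2, 3 and 5. At day 7 it stood at -0.21, -1.56, -1.26 and -1.30 in replicates 1 to 4. All day 4 tumors were below all tumors of days 1 and 2, if narrowly (-0.74 beside -0.70), while day 7 replicate 1 was as high as the early tumors and the other 3 tumors of day 7 were as low as those of day 4. At day 14 the ratios were -1.82 and -1.96, below every earlier tumor. NELL2 was thus lower than the pool in 15 of 16 tumors, the exception being day 1 replicate 1.

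Averaged by day, NELL2 had log2 ratios of -0.16 ± 0.38 (SD, n = 4) on day 1, -0.40 ± 0.42 (SD, n = 2) on day 2, -1.13 ± 0.33 (SD, n = 4) on day 4, -1.08 ± 0.60 (SD, n = 4) on day 7 and -1.89 ± 0.10 (SD, n = 2) on day 14. The treated tumors therefore held 89.3% of the pool's level on day 1, 45.7% on day 4 and 26.9% on day 14, when NELL2 was 3.71-fold below the pool. By the means, NELL2 was lower on day 4 than on day 1, about level on days 4 and 7, and lower again on day 14. Day 4 was lower than day 1 by a difference of -0.97 (SE 0.25), with no overlap between tumors. The SEs of differences between days, here and below, count tumors as independent. Day 1 had 4 tumors of only 2 mice, and days 4 and 7 had 4 of 3 mice each, so these SEs may be too small. Day 7 differed from day 4 by 0.05 (SE 0.34), well within the spread. Without day 7 replicate 1 the day 7 mean was -1.37, below that of day 4. Whether the drop came in steps or steadily can thus not be told. Day 14 was lower than day 7 by a difference of -0.81 (SE 0.31), again with no overlap. Day 14 minus day 1 came to -1.73 (SE 0.20), and 4 of the 333 named probes had a more negative one. The median of that difference was -0.17 over the other named probes, -0.51 over the 55 other probes that the study put in the same set of late falling genes, and 0.02 over all probes.

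**Figure D1:**
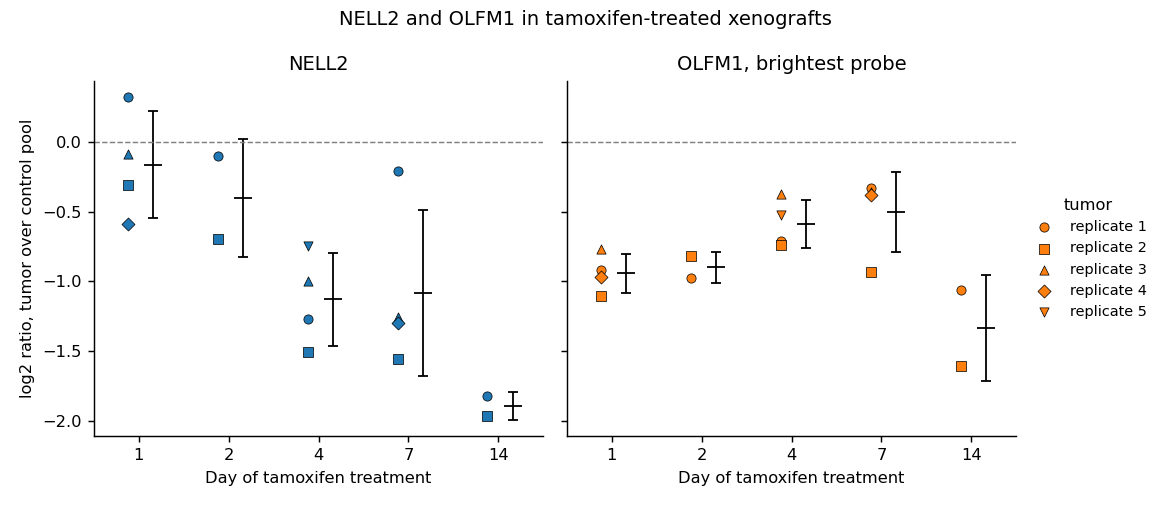
The log2 ratio of treated tumors over the control pool for NELL2 (left) and the brightest OLFM1 probe (right) by day of treatment. Each point is 1 tumor, with the marker giving its replicate number, and the bars are the mean ± SD of the day. The dashed line is the level of the pool. NELL2 averaged -0.16 on day 1 and -1.89 on day 14, while OLFM1 was at -0.94 on day 1, -0.50 on day 7 and -1.33 on day 14.

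OLFM1 followed another course: it was already low on day 1, came part of the way back to the pool at days 4 and 7, and was lowest on day 14. Its brightest probe, 45712_A, had log2 ratios of -0.92, -1.11, -0.77 and -0.97 in the 4 tumors of day 1. At day 2 they were -0.98 and -0.82, inside the range of day 1. At day 4 replicates 1, 2, 3 and 5 had -0.71, -0.74, -0.37 and -0.52, so that every day 4 tumor was above every tumor of days 1 and 2. At day 7 replicates 1 to 4 had -0.33, -0.93, -0.36 and -0.38. Replicate 2 of day 7 stood apart, since it was as low as the day 1 tumors and the other 3 were the highest of the series or close to it. At day 14 the ratios were -1.06 and -1.60. Unlike NELL2, OLFM1 was below the pool in all 16 tumors by this probe.

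The day means of 45712_A were -0.94 ± 0.14 (SD, n = 4) on day 1, -0.90 ± 0.11 (SD, n = 2) on day 2, -0.59 ± 0.17 (SD, n = 4) on day 4, -0.50 ± 0.29 (SD, n = 4) on day 7 and -1.33 ± 0.38 (SD, n = 2) on day 14. As shares of the pool these are 52.1%, 53.7%, 66.6%, 70.7% and 39.7%. Day 4 was higher than day 1 by 0.36 (SE 0.11), with no overlap. Day 14 was lower than day 7 by a difference of -0.83 (SE 0.31), also with no overlap. Day 14 minus day 1 was -0.39 (SE 0.28), and there the tumors overlapped, since day 14 replicate 1 (-1.06) was above day 1 replicate 2 (-1.11). In the order of the day means, days 1 and 2 did not differ beyond their spread, and neither did days 4 and 7.

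The other OLFM1 probes allowed the course to be read again on separate spots of the same arrays, which share the RNA and so are no replicates. Probe 44177_A averaged -0.99 ± 0.10 on day 1, -0.62 ± 0.28 on day 2, -0.47 ± 0.14 on day 4, -0.51 ± 0.33 on day 7 and -1.31 ± 0.35 on day 14. One of its 32 spots, on the dye-swap array of day 4 replicate 2, carried the mark 0 and was left out. Probe 22367_A averaged -0.97 ± 0.04, -0.67 ± 0.28, -0.59 ± 0.32, -0.52 ± 0.27 and -1.35 ± 0.13 on the same days (SD, n = 4, 2, 4, 4 and 2 tumors for each probe). Both were below the pool in 16 of 16 tumors and ran like 45712_A, with the lowest mean on day 14 and the highest on day 4 or 7. They differed from it on day 2, where 45712_A was still at its day 1 level and both of these were above all their day 1 values. Across the 16 tumors these 3 probes correlated with r of 0.842 to 0.914, and within days with r of 0.605 to 0.811. Their mean absolute differences per tumor were 0.104 to 0.131.

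The remaining OLFM1 probes were the dimmest and ran less alike. Probe 173569_A averaged -0.64 ± 0.18 on day 1, -0.70 ± 0.23 on day 2, -0.43 ± 0.29 on day 4, -0.34 ± 0.35 on day 7 and -0.49 ± 0.46 on day 14, so its mean did not show the low level of day 14. Its day 14 tumors were at -0.17 and -0.82, but there the orientations disagreed. The forward arrays gave -0.96 and -1.45, and the dye swaps 0.62 and -0.18. Its day 7 replicate 3 was above the pool, at 0.14. Its correlation with the other OLFM1 probes was between 0.344 and 0.491 over the 16 tumors. Probe 122756_A, which the study placed in a set of early or transient genes while the other probes are in the set of late falling genes, averaged -0.68 ± 0.17, -0.56 ± 0.11, -0.18 ± 0.38, -0.48 ± 0.21 and -1.06 ± 0.19 on the 5 days in order. It had its lowest mean on day 14 as well, and its day 14 tumors (-0.92 and -1.19) were below all its tumors of day 7 and of day 1. It correlated with the 3 brightest probes with r of 0.714 to 0.805. Its highest value, 0.29, was in day 4 replicate 3, the tumor with the forward array alone.

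**Figure D2:**
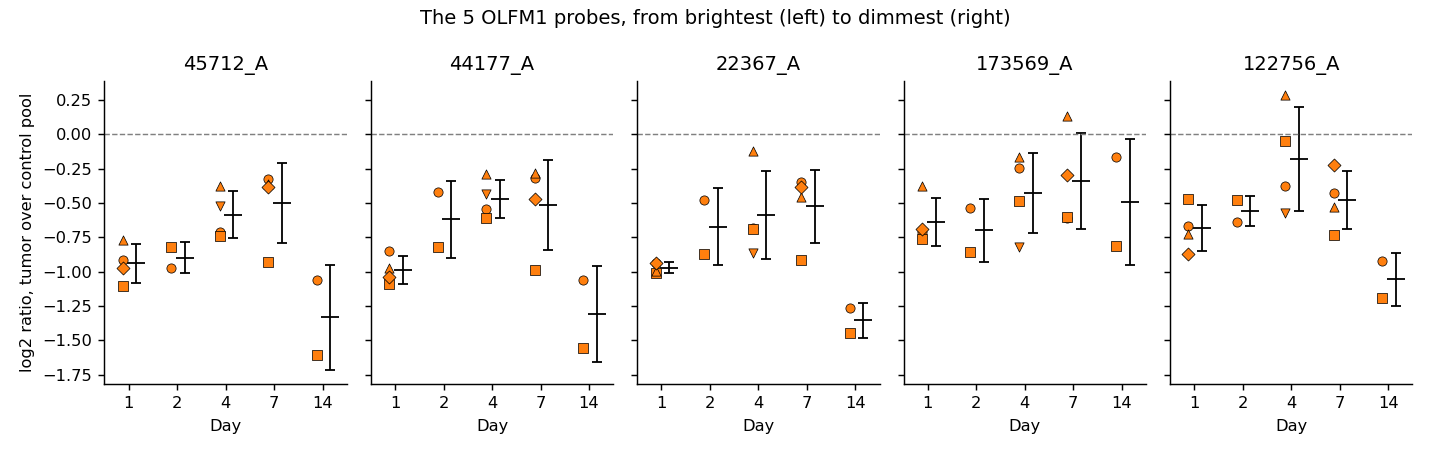
The log2 ratio of tumor over control pool by day for each OLFM1 probe, with the brightest at the left. Points are tumors (markers as replicate numbers) and bars are the mean ± SD of the day. The day 14 means are -1.33, -1.31, -1.35, -0.49 and -1.06 from left to right, so the mean of 173569_A alone lacks the low level of day 14. Its forward and dye-swap arrays disagreed on that day.

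The gap between both dye orientations was not itself the measure by which the probes were chosen. A wide gap may still add spread between arrays and so keep a probe off the study's list. The gap was taken per tumor as the forward ratio minus the dye-swap ratio, divided by 2. It was tested across all probes with limma in the 15 tumors with both orientations. For NELL2 the effect was -0.20 (SE 0.04, adjusted p = 0.000414). Forward arrays gave NELL2 a mean of -1.07 and dye swaps a mean of -0.67, and the forward value was the lower one in all but 1 tumor. For OLFM1 122756_A the effect was larger and of opposite sign, 0.40 (SE 0.05, adjusted p = 1.7e-06): its forward arrays averaged -0.19 and its dye swaps -0.99, with the forward value higher in 15 of 15 tumors. The other 4 OLFM1 probes did not pass the threshold of 0.05. Their effects were -0.07 for 45712_A (adjusted p = 0.0520, forward higher in 3 of 15), -0.01 for 44177_A (0.820, 8 of 14), 0.03 for 22367_A (0.404, 11 of 15) and -0.01 for 173569_A (0.892, 8 of 15). So 2 of 6 probes were called, against 52.7% of all 9912 probes, most of which the study did not list. The median size of the effect over all probes was 0.124 and the upper decile began at 0.289, so NELL2 lay between them and 122756_A beyond both.

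**Figure D3:**
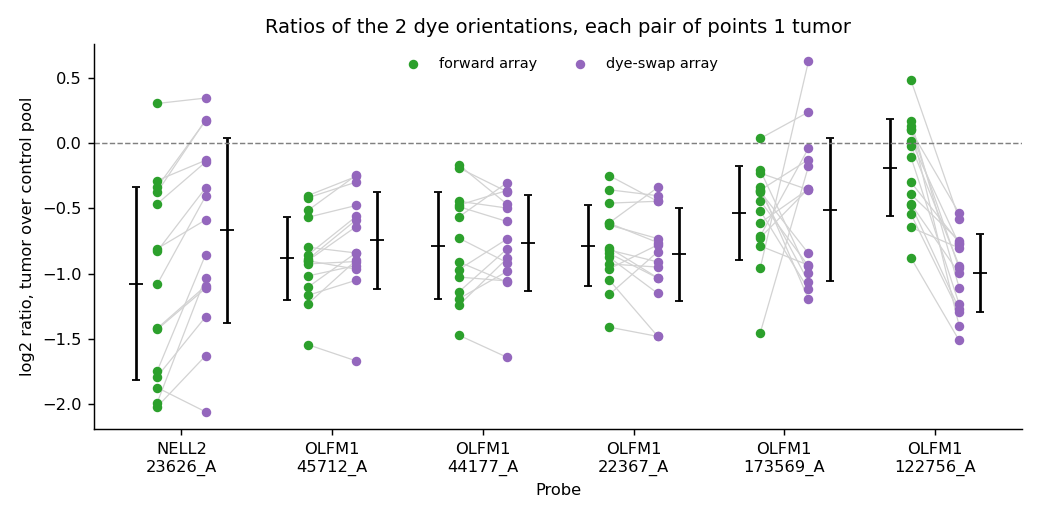
The log2 ratio of tumor over control pool on the forward array (green) and on the dye-swap array (purple) of each tumor, for the NELL2 probe and the OLFM1 probes. A grey line joins the arrays of 1 tumor, and the black bars beside the points are the mean ± SD over tumors. The lines of 122756_A all fall to the right, with means of -0.19 and -0.99, those of NELL2 rise in all but 1 tumor, and those of 173569_A cross.

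Averaging the orientations cancels a constant dye effect where both arrays exist. Day 4 replicate 3 has the forward array alone, and there NELL2 was at -0.998 and 122756_A at 0.29. In probe 173569_A the effect averaged near 0, but it varied more between tumors (SD 0.37) than in the other probes (SD 0.07 to 0.18), and this was the OLFM1 probe that agreed least with the rest.

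Set side by side, the genes changed places. At days 1 and 2 OLFM1 was the lower one in all 6 tumors, and at days 4, 7 and 14 NELL2 was the lower one in 9 of 10. NELL2 minus OLFM1 (brightest probe) within a tumor was 1.24, 0.80, 0.69 and 0.38 on day 1, and 0.88 and 0.12 on day 2. It was -0.56, -0.77, -0.63 and -0.22 in replicates 1, 2, 3 and 5 of day 4. The sign was thus opposite in every day 4 tumor, and none of them overlapped the tumors of days 1 and 2. Each day had other mice, so no tumor was followed over time. At day 7 the differences were 0.12, -0.63, -0.90 and -0.92 in replicates 1 to 4, and on day 14 they were -0.76 and -0.36. Day 7 replicate 1 was the only late tumor with NELL2 above OLFM1. Its forward and dye-swap arrays were also the least alike across the named probes (r = 0.373). They gave -0.29 and -0.13 for NELL2, and -0.40 and -0.26 for OLFM1. The means were 0.78 ± 0.35 (SD, n = 4) on day 1, 0.50 ± 0.53 (SD, n = 2) on day 2, -0.54 ± 0.23 (SD, n = 4) on day 4, -0.58 ± 0.49 (SD, n = 4) on day 7 and -0.56 ± 0.28 (SD, n = 2) on day 14. These last 3 means are of about the same size, but that depended on the background step: without background correction they were -0.37, -0.39 and -0.11. These are ratios to the pool on separate probes, so they say nothing of which transcript was more abundant.

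**Figure D4:**
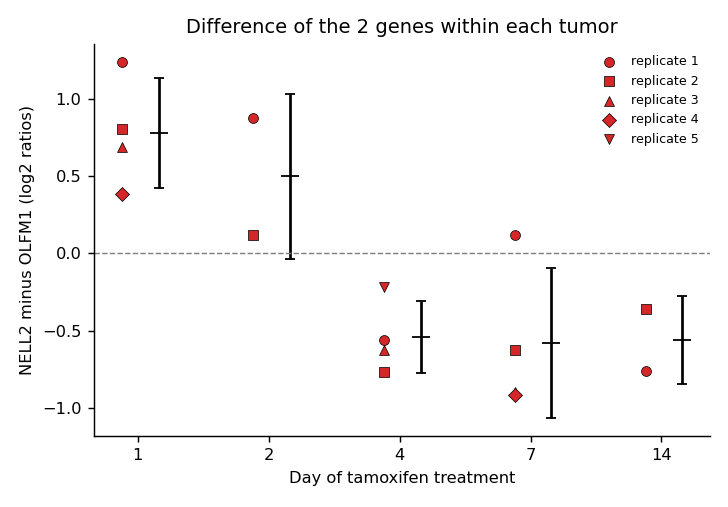
NELL2 minus OLFM1 (brightest probe), as the difference of their log2 ratios to the pool within each tumor, by day of treatment. Points are tumors and bars are the mean ± SD. All points of days 1 and 2 are above 0, and all later points except day 7 replicate 1 are below it.

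Within a day, tumors with less NELL2 were not clearly those with less OLFM1. Deviations from the day means, averaged per mouse, correlated with r = 0.46 (exact two-sided permutation of mice within days, p = 0.368, 12 mice) and rho = 0.37 (exact permutation p = 0.361). The smallest p this design allows is 0.00347. Without the 2 mice whose NELL2 lay farthest from the median, those of day 7 replicates 1 and 2, r was 0.13 (exact permutation p = 0.75, 10 mice), so what relation there was rested on them. Day 7 replicate 1 was the highest of its day for both genes and replicate 2 the lowest for both. This was the single relation of its kind tested. Pairs of tumors from the flanks of 1 mouse differed by 0.63 and 0.50 in NELL2 on day 1, by 0.24 on day 4 and by 0.04 on day 7. For OLFM1 45712_A the same pairs differed by 0.19 and 0.20 on day 1, 0.03 on day 4 and 0.02 on day 7. By these probes the flanks of 1 mouse were farthest apart on day 1. The other OLFM1 probes did not all show this: on day 7 they differed by 0.07 to 0.43, each more than NELL2, and 173569_A and 122756_A differed by 0.24 and 0.33 on day 4.

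The probes that limma called against the pool at an adjusted p under 0.05 are given as a count, since this is the contrast that chose them. NELL2 was not called at days 1 and 2 and was called lower at days 4, 7 and 14. Of the 5 OLFM1 probes, 5 were called lower on day 1, 1 on day 2, 2 on day 4, 3 on day 7 and 4 on day 14, with 45712_A among them on each day and 173569_A missing on day 14. Over all 9912 probes the share called lower was 3.59% on day 1, 0.636% on day 2, 0.696% on day 4, 0.494% on day 7 and 2.96% on day 14. In either direction the shares were 6.59%, 0.777%, 1.07%, 0.736% and 6.29%. Of the 327 other named probes, 40.7%, 13.8%, 13.8%, 14.1% and 74.9% were called in either direction on those days. With the left-out array kept, neither gene was called on days 4 and 7, nor OLFM1 on day 2. With 1 mean per mouse in place of tumors, neither NELL2 nor any OLFM1 probe was called on days 4 and 7. Several calls also hung on 1 tumor. NELL2 was not called on day 4 without replicate 2 (mean -1.003), on day 7 without replicate 2, 3 or 4 (means -0.92, -1.02 and -1.01), or on day 14 without replicate 2, which leaves 1 tumor (-1.82). OLFM1 45712_A was not called on day 2 without replicate 1 (-0.82) or on day 4 without replicate 2 (-0.53), and on day 7 it was called under 12 of 27 other settings, and in no setting that left out a tumor of day 7.

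In rank among the 333 named probes, both genes were among the lowest from day 4 on, and OLFM1 was so on day 1 as well. At day 1, 132 named probes were lower than NELL2, and 15 were lower than OLFM1 45712_A. At day 4 the counts were 9 for NELL2 and 34 for this probe. At day 14 they were 11 and 26. NELL2 thus moved from higher in the list to its low end, where OLFM1 45712_A was from the start. Other OLFM1 probes ranked higher on some days, with 120 named probes below 122756_A on day 4 and 156 below 173569_A on day 14.

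The genes whose ratios ran most like NELL2 over the 16 tumors, out of the 252 other named genes, were CA12 (r = 0.836), a membrane-bound carbonic anhydrase, WFDC2 (r = 0.814), a secreted protein of epithelia, IRS1 (r = 0.789), a docking protein of the insulin receptor, and EGR3 (r = 0.777), a zinc finger transcription factor. CA12, IRS1 and EGR3 are also on the list of estrogen-induced genes used below. CA12 had day means of -0.06, -0.39, -0.40, -0.47 and -1.10 on the 5 days in order, and EGR3 had -0.64, -0.68, -0.67, -0.71 and -1.81. NELL2 differed by -0.73 between the means of days 4 and 2, and none of these 4 genes had so large a drop there. The most opposite genes were PPAP2C (r = -0.88), which encodes a lipid phosphatase and stood at 1.18 on day 14, and MYLK (r = -0.85), which encodes myosin light chain kinase and stood at 0.76. All named genes were picked by the study on these arrays, and the points share libraries, so the correlations are descriptions.

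For OLFM1 45712_A the most similar genes were CA8 (r = 0.821), a carbonic anhydrase-related protein, EBP (r = 0.810), a sterol isomerase of cholesterol synthesis, IL24 (r = 0.803), a cytokine, and MGP (r = 0.779), a matrix protein that inhibits calcification. They shared the return towards the pool: CA8 had day means of -0.44, -0.34, -0.28, -0.27 and -0.98, and MGP had -0.40, -0.42, -0.29, -0.15 and -1.15. The most opposite were SELENBP1 (r = -0.83), a selenium-binding protein at 0.64 on day 1, 0.37 on day 7 and 1.07 on day 14, and PPOX (r = -0.79), an enzyme of heme synthesis. No gene was on both lists of 4. Between NELL2 and OLFM1 themselves, r was 0.175 over the 16 tumors.

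**Figure D5:**
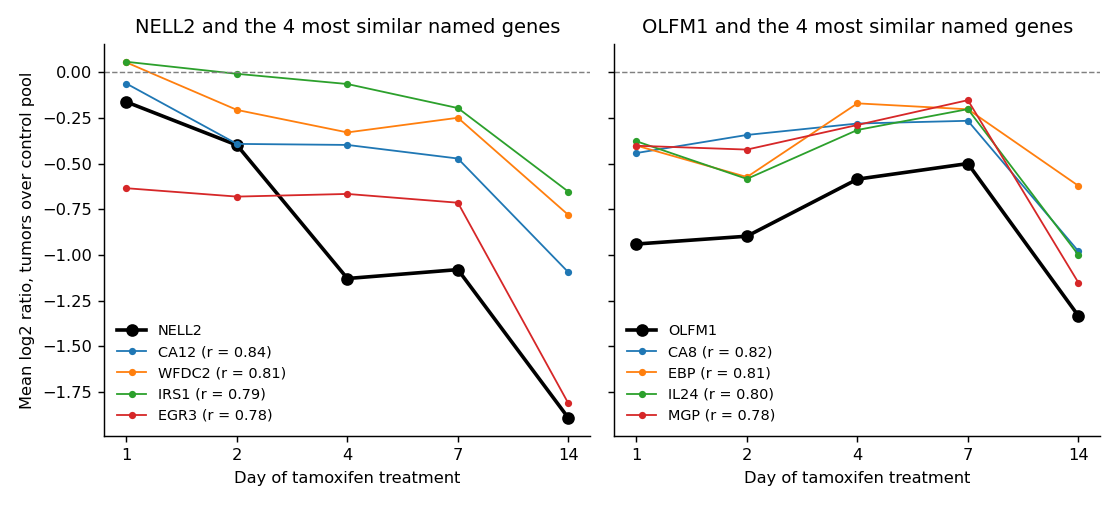
Mean log2 ratio of tumors over control pool by day for NELL2 (left, black) and the brightest OLFM1 probe (right, black), each with the 4 named genes that had the highest Pearson r to it over the 16 tumors. The NELL2 line drops between days 2 and 4 and again after day 7, while the OLFM1 line and its companions reach their highest means on day 4 or 7 and their lowest on day 14.

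Few other genes of axon guidance could be followed. Of 79 listed genes of axon guidance and neural adhesion, 6 had a named probe, and ROBO3, the NELL2 receptor, was not among them. None of the 6 was called on days 1 to 7. At day 14, 2 were called lower and 2 higher, with a median log2 ratio of -0.02 beside a median of 5.97e-05 over all probes. KAL1, which encodes the secreted neural adhesion protein anosmin, rose to 1.24 ± 0.11 (SD, n = 2), and CELSR2, a cadherin of the planar polarity family, fell to -1.07 ± 0.22 (SD, n = 2). CLSTN3, a calsyntenin of synapses, had 0.82 ± 0.23 and was not called. CELSR2 is also on the list of estrogen-induced genes used below.

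Of 35 listed neuronal and synaptic proteins, 14 had a named probe. The list was made with the study's named genes known, so this number does not measure how well such proteins were covered. Of these 14 genes, 4, 1, 3, 4 and 11 were called lower over the 5 days in order, and 1 was called higher, on day 1. Their median log2 ratio was -0.35, -0.36, -0.20, -0.30 and -0.84 on those days. Among the 327 named probes other than those of NELL2 and OLFM1, 40.7%, 13.8%, 13.8%, 14.1% and 74.9% were called in either direction. Many calls on day 14 were thus common to named probes. At day 14 GFRA1, the co-receptor of the neurotrophic factor GDNF, stood at -2.53 ± 0.26 (SD, n = 2), CLN8, a membrane protein of the endoplasmic reticulum, at -1.92 ± 0.14, and AMPH, which encodes the endocytic protein amphiphysin, at -1.58 ± 0.31, and all 3 were called lower. CLN8 was also called lower at days 4 and 7, when NELL2 was. NELL2 at -1.89 lay close to CLN8 on day 14, and OLFM1 45712_A at -1.33 lay between AMPH and the median. GFRA1, with means of -0.39 on day 1 and -0.73 on day 4, was not called before day 14. It is also on the list of estrogen-induced genes used below.

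Among secreted and extracellular matrix proteins, 25 of 39 listed genes had a named probe. Of these 6, 3, 5, 8 and 14 were called lower and 1, 1, 1, 1 and 7 higher on the 5 days in order, and the median was -0.21, -0.46, -0.18, -0.24 and -0.74. ALB (albumin) fell to -5.00 ± 0.53 (SD, n = 2) on day 14 and SERPINA6, a corticosteroid carrier, to -2.56 ± 0.53, whereas IGFBP5, which binds insulin-like growth factors, rose to 2.56 ± 0.41. Over all probes, 3.33% were called higher on that day. Unlike NELL2, SERPINA6 was at -1.52 ± 0.16 (SD, n = 4) already on day 1. Of 30 estrogen-induced genes, 22 had a named probe. Called lower were 11, 4, 9, 8 and 18 of them and none higher on any day, with medians of -0.57, -0.51, -0.49, -0.47 and -1.08. These medians were lower on day 14 than on days 1 to 7 and otherwise nearly level. IGFBP4, another binder of insulin-like growth factors, stood at -2.24 ± 0.10 on day 1 and -2.48 ± 1.04 on day 14. SERPINA6, GFRA1 and CELSR2, given above, are on this list as well. The genes on all these lists carry names here because the study picked them on these arrays, so the counts do not describe the lists as a whole. On days 1 and 14, 40.7% and 74.9% of the 327 other named probes were called in either direction. High counts on those days are therefore common among named probes.

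Markers of cell types moved as well, and their part in the NELL2 and OLFM1 levels was not tested. Of 12 neural and glial markers, 4 had a named probe, and their median was -0.13, -0.04, -0.14, -0.24 and -0.89 on the 5 days in order. None was called before day 14, when SYT1, AMPH and MAPT were lower, MAPT at -1.12 ± 0.09 (SD, n = 2). The other, PMP22, was at 0.68 ± 0.58 and was not called. A marker that was not called may still have changed: AMPH averaged -0.45 ± 0.66 (SD, n = 4) on day 1. Of 9 fibroblast and matrix markers, FN1, LGALS1 and MGP had a named probe, and they were called lower on day 14 alone, with a median of -0.68. Of 16 luminal epithelium markers 9 had one, with medians of 0.55, 0.37, 0.36, 0.39 and 0.76. Of these 5, 0, 2, 2 and 7 were called higher on the 5 days in order. The single call in the other direction was MUC1, an epithelial mucin, which was lower on day 1 at -0.69 ± 0.32 (SD, n = 4) and higher on day 14 at 1.02 ± 0.05 (SD, n = 2). CD24, a surface glycoprotein, and CREB3L4, a transcription factor, were called higher on day 14 at 1.24 ± 0.24 and 0.91 ± 0.13 (SD, n = 2). No endothelial or macrophage marker of the 5 and 4 listed had a named probe. As ratios to a pool of the same xenografts, the marker values show change and do not check which cells the tumors held. Beside the marker calls, 40.7%, 13.8%, 13.8%, 14.1% and 74.9% of the 327 other named probes were called in either direction on the 5 days.

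Promoter sequence was at hand for OLFM1, which lies on chromosome 9, in 3 windows of the RefSeq table (GRCh38.p14), and for NELL2, on chromosome 12, none was used here. The windows are shown because estradiol and tamoxifen act through a receptor that binds the estrogen response element, the arms GGTCA and TGACC with any 3 bases between them. In the 250 bases before each start, on both strands, neither the full element nor a single arm was found, and the AP-1 site (TGANTCA) and the TATA box (TATAAA) were not found either. Of 35116 windows of that length in the table, 0.0399% hold the full element, 32.6% an arm, 6.57% the AP-1 site and 10.7% the TATA box. What these windows do hold is the GC box (GGGCGG, or CCGCCC on the other strand), a motif of constitutive promoters that 42.6% of all windows have. It occurred 4 times in the first and in the third window, in capitals below, and 0 times in the second (chr9:135087010-135087259, plus strand). These windows are rich in G and C (76.8%, 71.6% and 71.2%), and a match or its absence says nothing of a factor's binding.
OLFM1 window at chr9:135075255-135075504, plus strand: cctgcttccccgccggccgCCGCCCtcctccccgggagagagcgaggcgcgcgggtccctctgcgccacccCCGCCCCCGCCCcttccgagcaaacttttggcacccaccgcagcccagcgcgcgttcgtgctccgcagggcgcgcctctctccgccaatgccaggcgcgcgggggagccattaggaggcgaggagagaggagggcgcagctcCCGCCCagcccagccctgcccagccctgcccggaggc
OLFM1 window at chr9:135087418-135087667, plus strand: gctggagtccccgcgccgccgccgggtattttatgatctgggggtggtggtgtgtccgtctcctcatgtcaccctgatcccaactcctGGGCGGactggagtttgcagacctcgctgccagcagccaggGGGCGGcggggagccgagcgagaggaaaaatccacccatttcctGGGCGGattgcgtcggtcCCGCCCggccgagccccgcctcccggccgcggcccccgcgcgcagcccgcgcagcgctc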

How the data were processed

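Arrays of 2 colours were hybridized for 16 tumors. The intensity values, spot brightness and local background per channel, are deposited as scanned by the authors, without background correction or normalization, with a spot mark (0, 1 or 2) whose meaning is not stated. The authors' log2 ratios per array, made with limma (version not given in the sources used here) through background correction, loess and quantile normalization, were used as an alternative. They matched the recomputed ratios with r of 0.217 to 0.994 on the arrays kept, lowest on the forward array of day 7 replicate 4. Of its 9928 probes, 9908 are among the 9912 of the scanner files, and 665 of its values are missing. No column of samples outside the labels was met.

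limma 3.58.1 and statmod 1.5.0 were run under R 4.3.3. From 1 to 393 spots of an array carried the mark 0 and were dropped. Background was corrected by normexp (offset 50), followed by loess within and quantile normalization between arrays. Ratios (channel 2 over channel 1, turned on dye swaps) were averaged per tumor. The limma fit had a mean for each day and treated the mouse as random (correlation 0.0206), with Benjamini-Hochberg adjustment over all probes of a day. Tests of single relations were exact permutations. The fits were checked on simulated data. The number of arrays limits the precision.

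Gene names come from the study's list, so 9579 probes stay unnamed. The brightest probe stands for a gene. Besides the 6 probes, the text names the 3 members of each list with the largest mean ratio at day 14 in size and the 4 genes most like each gene. This rule picks genes by their values on these arrays, so the genes named need not be typical of their lists. CLN8 at days 4 and 7, GFRA1 before day 14, SYT1, the 2 most opposite genes and the absent ROBO3 were added after their values were seen. The members and lists were chosen with earlier results of these data known. The labels number tumors within each day, and the samples of 1 number on different days share no animal. Alternatives covered background correction, normalization, marks, dim probes, the left-out array, orientation, the OLFM1 probe, the mouse and replicate blocks, the samples fitted, the authors' table and leaving out each tumor.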

Additional observations from a re-analysis of the deposited data

Results flagged for a closer look

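The OLFM1 probe 45712_A had a log2 ratio of -0.93 in day 7 replicate 2, far from the other 3 tumors of that day, which lay between -0.38 and -0.33. In 21 groups of 4 tumors looked at (the 6 probes and the difference between both genes, on days 1, 4 and 7), this was the single value that stood so far from its group, and chance marks about 1 group in 20.

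NELL2 minus OLFM1 was of opposite sign in every tumor of some days. It averaged -0.54 at day 4, against 0.78 at day 1, and -0.56 at day 14, against 0.78 at day 1. Set against day 2, where it averaged 0.50, it was -0.54 at day 4 and -0.56 at day 14. These differences between days were not tested, since the genes and the pair were chosen with such values known. Day 7 is not among them because replicate 1 of that day had the sign of the tumors of days 1 and 2 (0.12).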

How the results depend on the processing

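With the dye-swap arrays alone, NELL2 at day 1 was 0.0057 in place of -0.16. NELL2 at day 4 was -0.78 with the left-out array kept as labelled, and at day 14 it was -1.62 with plain background subtraction, -1.28 without background correction and -1.69 in the authors' table (also without the forward column of day 7 replicate 4, an alternative chosen after seeing the data). OLFM1 at day 2 was -0.68 as the median of its 5 probes. NELL2 minus OLFM1 was -0.31 at day 4 from dye swaps alone and -0.11 at day 14 without background correction. The orientation effect of OLFM1 45712_A passed the threshold without background correction (-0.0677, adjusted p = 0.0139) and without the mouse block (-0.0687, adjusted p = 0.0470), and ranged between -0.0774 and -0.0607 when 1 tumor was left out, passing it without day 2, 7 or 14 replicate 2. The other values (326 of 340) kept their direction where one was called, their side of the threshold where tested and otherwise moved by less than 1 SD of the day's tumors, which for small levels is wide. With 1 tumor left out, NELL2 was -0.32 to -0.02 on day 1 (lowest without replicate 1, highest without replicate 4) and -0.70 to -0.10 on day 2, NELL2 minus OLFM1 was 0.12 to 0.88 on day 2, and with 1 mouse left out the within-day r was 0.13 (without that of day 7 replicate 2) to 0.60. The counts of probes called against the pool, 653, 77, 106, 73 and 623 on the 5 days in order, moved by far more. They were 1052, 170 and 136 on days 1, 4 and 7 without background correction, 136 at day 2 with subtraction, 1127 at day 1 without normalization between arrays, and 69 at day 4 with spots of mark 0 kept. Keeping the left-out array gave 367, 0 and 1 on days 1, 4 and 7 (454 probes at an unadjusted p under 0.05 at day 4), and the authors' table gave 1269 at day 1 and 0 at day 7 (986 at an unadjusted p under 0.05). One mean per mouse gave 26, 25 and 14 on days 1, 4 and 7. Fitting 1 day alone gave 1443, 1, 18 and 3 on days 1, 2, 4 and 7. Leaving out 1 tumor of any day gave 172 to 859, 6 to 309, 16 to 128, 14 to 89 and 30 to 743, lowest without day 1 replicate 1, day 2 replicate 1, day 4 replicate 2, day 7 replicate 2 or 4, and day 14 replicate 2. Tumors of the same number on different days deviated together little, if at all (mean r 0.135, -0.52 to 0.43 over 24 pairs, and -0.04 for other pairs). This was not tested, so whether they share more than a number cannot be told. With the replicate block the counts were 15, 174 and 328 on days 2, 4 and 14, and OLFM1 45712_A was no longer called at days 2 and 7. Of 27 other settings of the fit, NELL2 was called at days 4, 7 and 14 in 24, 21 and 26, and OLFM1 45712_A on the 5 days in order in 27, 24, 24, 12 and 27. The limit on dim probes removed 0 probes. The causes of these shifts were not tested.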
